A study of Homo sapiens with 24 samples.

Results

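Clear cell renal cell carcinoma (ccRCC) starts in most patients with loss of VHL, and then collects mutations in a small set of chromatin and growth control genes. The 9 genes described here belong to that set, with VHL left out: PBRM1, ARID1A and SMARCA4 of the SWI/SNF complexes, the deubiquitinase BAP1, the histone methyltransferase SETD2, the mTOR pathway genes TSC1, TSC2 and MTOR, and TCEB1, whose current symbol is ELOC and which encodes elongin C. They were taken by name, and all 9 of the 9 were found among the 26475 genes in each file. Their RNA was measured in a pair of ccRCC cell lines in which the transcription factor PAX8 had been targeted.

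The proteins act at separate points of the cell. SWI/SNF complexes slide and evict nucleosomes with the energy of ATP, which their ATPase SMARCA4 hydrolyses. PBRM1 is the defining subunit of the PBAF form and ARID1A of the BAF form. BAP1 removes ubiquitin from histone H2A, and SETD2 is the enzyme that adds the last methyl group to lysine 36 of histone H3 along transcribed genes. TSC1 and TSC2 form a complex that holds the small GTPase RHEB in its inactive state, and RHEB in its active state switches on the kinase MTOR. Elongin C joins VHL to the cullin CUL2 in the ubiquitin ligase that removes HIF2A (gene EPAS1). PBRM1, BAP1 and SETD2 lie together on the short arm of chromosome 3, which most ccRCCs lose in 1 copy together with VHL.

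The RNA-seq data came from 786-M1A and OS-LM1, metastatic human ccRCC lines that carry VHL mutations. In each line 4 replicate libraries carried shPAX8-1, 4 carried shPAX8-2 and 4 carried sgNTC18, which gives 6 groups and 24 libraries. Both hairpins target PAX8, the lineage factor of renal epithelium, and sgNTC18 is a non-targeting guide RNA, whereas the study's methods compare hairpin cells with a control hairpin. The vector and the experiment therefore cannot be told apart from PAX8 depletion in any comparison with sgNTC18, and a comparison of the hairpins with each other is given as well. All cells were grown in RPMI with serum and lysed before they were fully confluent, and nothing in the sources states that replicates were separate cultures, so p-values measure only the spread between these libraries, which may be technical. For the library kit the labels give KAPA and the methods give Lexogen. Whether any of the 9 genes is mutated in these lines was not analysed here.

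The guide strands of the hairpins are shown because both define the PAX8-depleted groups and because TSC1 and MTOR, which differed between these groups, hold matches to the seed of shPAX8-1. Each is 22 bases long, is read 5′ to 3′, and has its seed, bases 2 to 8, in capitals.
shPAX8-1: tGTGAGTCaatgcttagtcggc
shPAX8-2: tAGAGTTGtgttaataatggag
The shPAX8-1 target lies on the minus strand at chr2:113241690-113241711 of GRCh38 and is present in 9 of the 10 coding PAX8 transcripts, in no case in the 3′ UTR. The shPAX8-2 target, at chr2:113218122-113218143, is present in 7 of the 10 and lies in the 3′ UTR of each of these 7.

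The targeted gene was low in every hairpin library. PAX8 was at 341 ± 44.7 CPM (counts scaled to the normalised library total, SD, n = 4) with sgNTC18 in 786-M1A and at 259.9 ± 14.5 in OS-LM1, and the 16 hairpin libraries lay between 14.8 and 97.0 CPM. The log2 fold change of PAX8 over sgNTC18 was -4.16 with shPAX8-1 and -2.99 with shPAX8-2 in 786-M1A, and -1.76 and -1.71 in OS-LM1. Depth ran from 11634419 to 52059375 counts per library, and the lowest count of any of the 9 genes in any library was 290. Among renal markers PAX2, KRT8, KRT18, CDH6 and EPAS1 were measured in every library, whereas the hypoxia genes CA9 and NDUFA4L2 reached no more than 0.162 and 0.647 CPM in 786-M1A. The summed level of the first 5 was 878 to 968 CPM with sgNTC18 in 786-M1A, 450.1 to 576 with shPAX8-1 and 720.2 to 898 with shPAX8-2. In OS-LM1 it was 894 to 968, 865 to 966 and 1041.3 to 1296.5 CPM. The leukocyte genes PTPRC and CD3E stayed at or under 0.317 CPM and LYZ at or under 4.28 CPM, but CD68 ranged from 76.5 to 399 CPM. The summed level of these 4 leukocyte markers was 78.0 to 92.3 CPM with sgNTC18 in OS-LM1 and 193 to 361 in its hairpin libraries. In 786-M1A it was 185 to 217 CPM with sgNTC18, 202 to 307 with shPAX8-1 and 309 to 403 with shPAX8-2. Nearly all of it was CD68, while PTPRC and CD3E were at or near 0 throughout. The part of the shifts in renal markers and CD68 in the values of the 9 genes was not tested. The RNA is that of whole cultures, so a change in every cell and a change in the share of cells cannot be told apart.

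A trend with GC content ran through the values. In the 786-M1A shPAX8-1 group, replicates 1 and 2 stood apart from replicates 3 and 4, and the gap followed the GC content of the transcript. The median log2 ratio of replicates 3 and 4 over 1 and 2 was 0.53 for the 2476 tested genes under 40% GC and -0.60 for the 1830 genes over 60%. The 9 genes span most of this scale, from 36.9% GC for TCEB1 to 62.0% for TSC2, around a median of 47.8% for all genes tested in 786-M1A. TCEB1 was 1.81 times as high in replicates 3 and 4 as in replicates 1 and 2, and TSC2 was 1.80 times as high in replicates 1 and 2. The 786-M1A shPAX8-2 group showed a smaller split of the same kind. Its replicates 1 and 2 differed by a chi-square per gene of 3.956, and 3 and 4 by 11.68. Across these pairs the values were 14.92 to 19.23, beside 44.74 to 77.37 in the shPAX8-1 group. Checks with replicates 1 and 2 alone in the shPAX8-1 group kept all 4 shPAX8-2 libraries. Fold changes between full groups also followed GC content. Between the hairpins their rank correlation with it was -0.551 in 786-M1A and -0.199 in OS-LM1. With shPAX8-1 over sgNTC18 in OS-LM1 it was -0.32. Such fold changes are therefore given with a second value, called the GC-corrected value, for which a smooth trend in GC content was removed from every library. For PAX8 over sgNTC18 the GC-corrected value was -3.73 and -2.88 in 786-M1A and -1.42 and -1.47 in OS-LM1 (shPAX8-1 and shPAX8-2). The correction cannot tell a technical trend from a biological difference that follows GC content, and removes both. It also takes the fitted trend as known, so the uncertainty of the trend is not part of the corrected p-values.

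**Figure D1:**
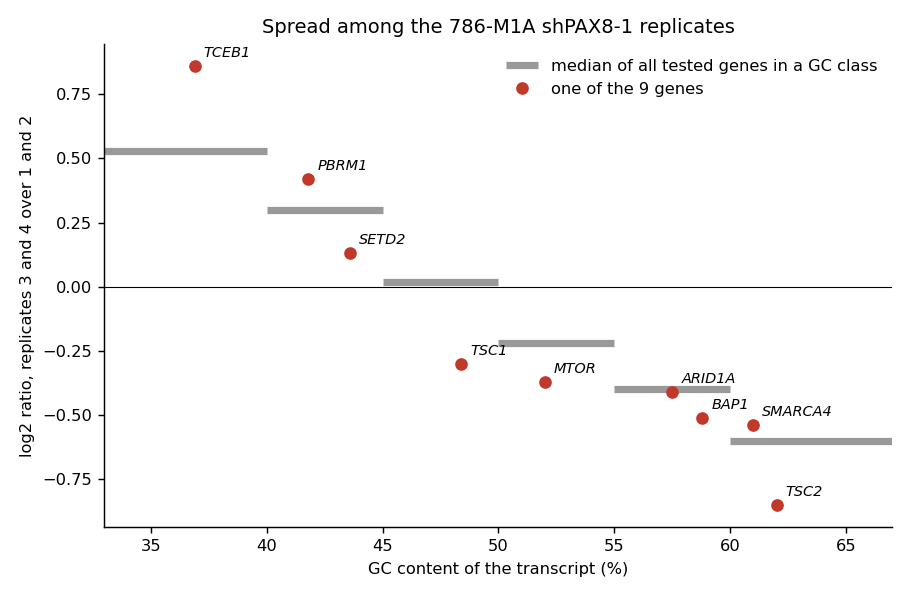
Log2 ratio of the mean level in replicates 3 and 4 over that in replicates 1 and 2 of the 786-M1A shPAX8-1 group, against the GC content of the transcript in percent, for the 9 genes (red points) and as the median of all tested genes per GC class (grey bars). The ratio falls from 0.86 for TCEB1 at 36.9% GC to -0.85 for TSC2 at 62.0% GC.

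All 9 genes passed the filter on low counts in both lines. TCEB1 was the most abundant of them per transcript length in every group, from 57.4 ± 4.83 TPM (transcripts per length and library, SD, n = 4) with sgNTC18 in OS-LM1 to 160 ± 52.9 TPM with shPAX8-1 in 786-M1A. PBRM1 had the lowest mean of the 9 in each 786-M1A group, at 6.41 to 7.87 TPM, and TSC1 in each OS-LM1 group, at 3.82 to 6.53 TPM. The order of the others changed with the construct: SMARCA4 and BAP1 stood at 48.6 and 39.8 TPM with sgNTC18 in 786-M1A, above ARID1A at 24.7, and their means were below that of ARID1A in both hairpin groups of that line, by less than the SD with shPAX8-1. Over the 24 libraries BAP1 varied most, 5.94-fold from lowest to highest CPM, and SETD2 least, 2.05-fold.

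Genes at large differed widely between the groups, and the counts among the 9 are read against that background. A gene was called where its edgeR p, adjusted over all genes tested, was under 0.05. Between the hairpins in 786-M1A 5 of the 9 were called, 1 higher and 4 lower with shPAX8-1, where 47.1% of the 14452 genes tested were called, 24.2% higher and 22.9% lower. With GC correction 5 of the 9 were called (46.9% of all genes), and 3 genes, TSC1, MTOR and TCEB1, were called both ways. In OS-LM1 4 of the 9 were called, all lower with shPAX8-1, where 29.1% of 15049 genes were called, 12.4% higher and 16.7% lower. With GC correction 3 remained, SETD2, TSC1 and MTOR, beside 35.1% of all genes.

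Against sgNTC18 most genes differed. In 786-M1A 7 of the 9 were called with shPAX8-1, 3 higher and 4 lower, beside 70.6% of all genes (36.1% higher, 34.5% lower), and 5 with GC correction (75.0%). With shPAX8-2 it was 7, 4 higher and 3 lower, beside 62.5% (31.5% higher, 30.9% lower), and 8 with GC correction (71.3%). In OS-LM1 all 9 of the 9 were called with shPAX8-1, 5 higher and 4 lower, beside 71.4% (35.6% higher, 35.8% lower), but 5 with GC correction (72.1%). With shPAX8-2 it was again 9, 5 higher and 4 lower, beside 68.4% (34.3% higher, 34.1% lower), and 7 with GC correction (68.9%). The hairpin comparisons of a line share their sgNTC18 libraries and are given side by side.

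Between the lines 7 of the 9 were called with shPAX8-1, 1 of them higher and 6 lower in OS-LM1, beside 76.4% of the 15665 genes tested over all libraries (38.7% higher, 37.7% lower), and 5 with GC correction (79.3%). With shPAX8-2 6 were called, 1 higher and 5 lower, beside 76.9% (38.7% higher, 38.2% lower), and 6 with GC correction (79.3%). With sgNTC18 8 were called, 1 higher and 7 lower, beside 63.0% (32.0% higher, 31.0% lower), and 7 with GC correction (67.2%). A difference between the lines in the effect of shPAX8-1 over shPAX8-2 was called for 2 of the 9, both lower, beside 27.2% of all genes (12.7% higher, 14.5% lower), and with GC correction for 2 others (31.2%), BAP1 (-0.37, adjusted p = 0.033) and TSC1 (0.36, adjusted p = 0.048). The share called among the 9 was above that of all genes in 8 of these 10 comparisons, by the widest margin with shPAX8-2 over sgNTC18 in OS-LM1 (100% beside 68.4%), and with GC correction in 4 of 10. In every comparison but that of the lines with sgNTC18, where it was 0.64 against 0.59, the median absolute log2 fold change of the 9 was below that of all genes, for example 0.35 against 0.42 between the hairpins in 786-M1A and 0.51 against 0.91 between the lines with shPAX8-1.

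**Figure D2:**
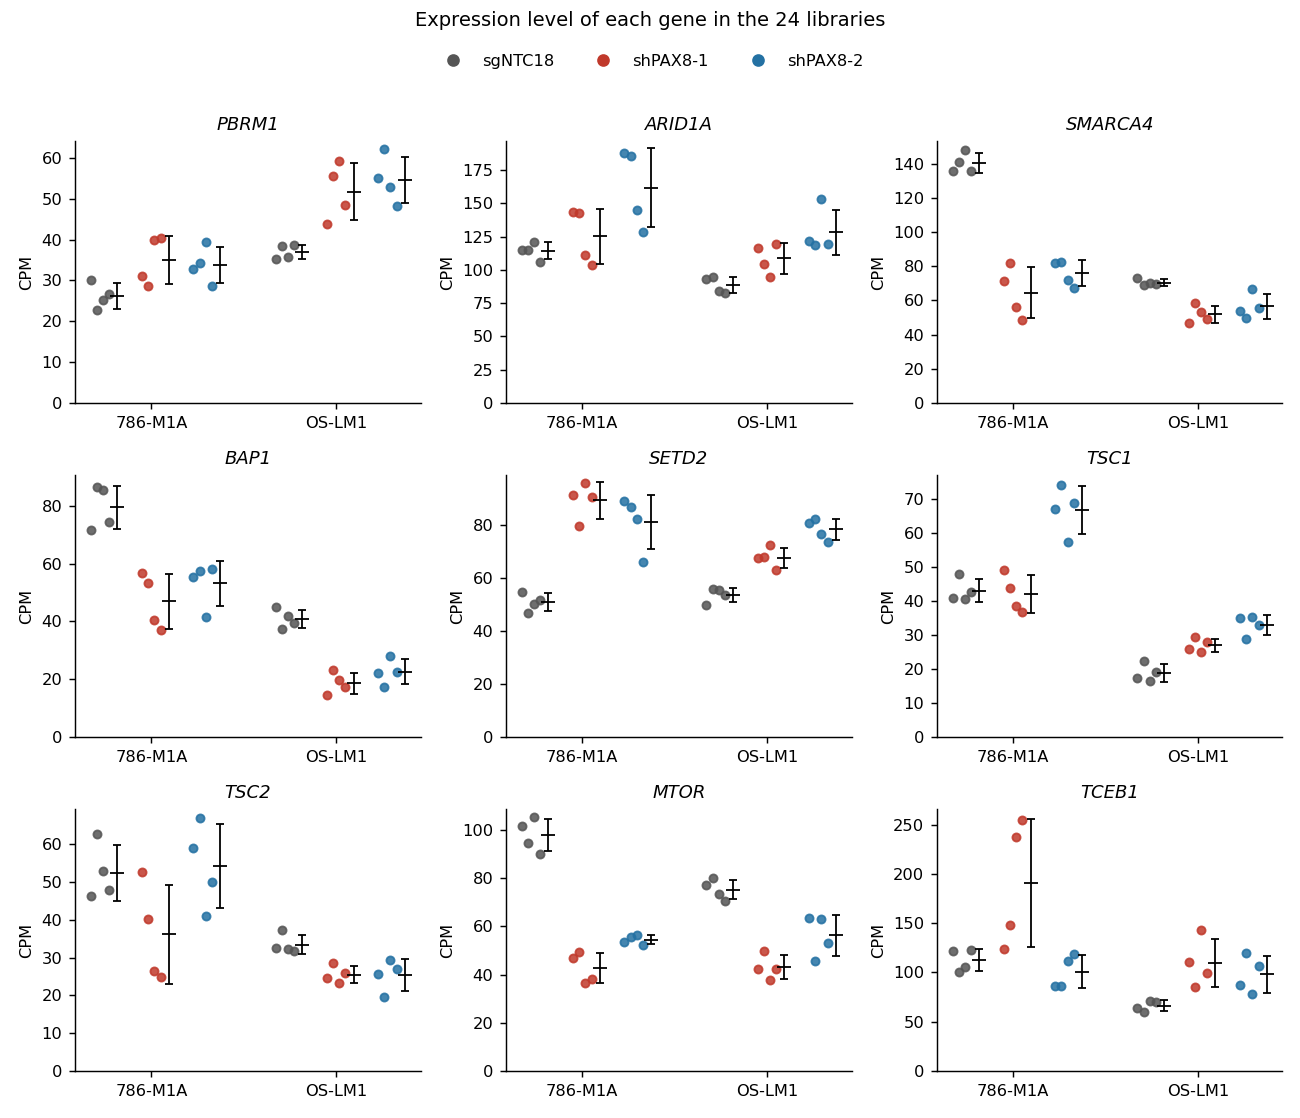
Level of each gene in CPM in the 24 libraries. Points are libraries, placed in replicate order within a group, and bars give the mean and SD of 4 libraries. BAP1, SMARCA4 and MTOR sit highest with sgNTC18 in both lines, and TSC1 in every OS-LM1 library lies under every 786-M1A library.

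The SWI/SNF members moved in different directions. PBRM1, on chromosome 3 from 52545367 to 52685913, was at 30.2, 22.7, 25.3 and 26.6 CPM in the sgNTC18 libraries of 786-M1A (replicates 1 to 4, the order used throughout), at 31.2, 28.6, 39.9 and 40.3 with shPAX8-1 and at 32.8, 34.2, 39.3 and 28.7 with shPAX8-2. In OS-LM1 it was at 35.3, 38.3, 35.7 and 38.6 with sgNTC18, at 43.8, 55.5, 59.1 and 48.4 with shPAX8-1 and at 55.1, 62.1, 52.8 and 48.3 with shPAX8-2. Every OS-LM1 hairpin library thus lay above every sgNTC18 library of that line, whereas the 786-M1A groups overlapped. From the highest group mean to the lowest, the order was OS-LM1 shPAX8-2 (54.6 ± 5.74), OS-LM1 shPAX8-1 (51.7 ± 6.91), OS-LM1 sgNTC18 (37.0 ± 1.74), 786-M1A shPAX8-1 (35.0 ± 5.97), 786-M1A shPAX8-2 (33.8 ± 4.36) and 786-M1A sgNTC18 (26.2 ± 3.11), and only the OS-LM1 shPAX8-1 and sgNTC18 groups among neighbours in this order were apart. PBRM1 rose over sgNTC18 with both hairpins in both lines, with log2 fold changes of 0.44 and 0.38 in 786-M1A (shPAX8-1 and shPAX8-2, edgeR adjusted p = 0.012 and 0.028) and of 0.46 and 0.56 in OS-LM1 (adjusted p = 0.00084 and 0.00012). The GC-corrected values were 0.07, 0.32, 0.19 and 0.35, and those with shPAX8-1 were no longer called. The shPAX8-1 value in 786-M1A was 0.18 and was not called either when replicates 1 and 2 alone stood for that group. In 786-M1A the shPAX8-2 call was lost when any 1 of 5 libraries was left out, namely sgNTC18 replicate 2, 3 or 4 or shPAX8-2 replicate 2 or 3. Between the hairpins PBRM1 passed the test in neither line, at 0.05 (95% interval -0.25 to 0.36) in 786-M1A and -0.11 (-0.33 to 0.12) in OS-LM1. The GC-corrected value in OS-LM1 was -0.16 and was not called. In 786-M1A it was -0.25 and was called (adjusted p = 0.026), so the sign and the call for PBRM1 in that line both changed with the correction.

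ARID1A, on chromosome 1 from 26696015 to 26782104, had the highest mean TPM of these SWI/SNF genes in every hairpin group, from 22.3 to 32.0. It was at 115.2, 115.2, 121 and 106 CPM with sgNTC18 in 786-M1A, at 143, 143, 111 and 104 with shPAX8-1 and at 188, 185, 145 and 129 with shPAX8-2. The OS-LM1 libraries held 92.9, 94.8, 83.8 and 82.6 with sgNTC18, 116, 104, 94.6 and 119.7 with shPAX8-1 and 122, 118, 154 and 119 with shPAX8-2. In both lines all 4 shPAX8-2 libraries were above all sgNTC18 libraries, and the shPAX8-1 libraries overlapped with both. The group means ran from 162 ± 29.5 with shPAX8-2 in 786-M1A down to 88.5 ± 6.23 with sgNTC18 in OS-LM1, and every group overlapped with the next. ARID1A rose with shPAX8-2 over sgNTC18 by 0.52 in 786-M1A (adjusted p = 0.0043) and by 0.54 in OS-LM1 (adjusted p = 9.1e-05), and with shPAX8-1 by 0.27 in OS-LM1 (adjusted p = 0.022), a call that was lost without shPAX8-1 replicate 1 (0.24) or 4 (0.22). The shPAX8-1 value in 786-M1A was 0.15 (adjusted p = 0.33). After GC correction all 4 values lay between 0.60 and 0.80 and all were called, so the rise of ARID1A over sgNTC18 was larger with the correction than without it. Between the hairpins ARID1A was lower with shPAX8-1 by edgeR, with -0.37 in 786-M1A (adjusted p = 0.041) and -0.27 in OS-LM1 (adjusted p = 0.048). Both calls were lost with GC correction, at -0.01 and -0.17. Leaving out 1 library ended the 786-M1A call in 4 of 8 cases (shPAX8-1 replicates 3 and 4, shPAX8-2 replicates 1 and 2) and the OS-LM1 call in 6 of 8, all but shPAX8-1 replicate 4 and shPAX8-2 replicate 2, with values between -0.15 and -0.32.

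SMARCA4, the ATPase, went the other way. Located on chromosome 19 from 10961030 to 11062273, it was at 136, 141, 148 and 136 CPM with sgNTC18 in 786-M1A, at 71.1, 82.0, 56.3 and 48.7 with shPAX8-1 and at 81.9, 82.7, 71.6 and 67.5 with shPAX8-2. The lowest sgNTC18 library was above the highest hairpin library. In OS-LM1 the levels were 73.2, 69.0, 69.9 and 69.6 with sgNTC18, 46.8, 58.3, 53.1 and 49.3 with shPAX8-1 and 54.0, 49.7, 66.5 and 55.6 with shPAX8-2, again without overlap between sgNTC18 and either hairpin. The highest group mean, 140.1 ± 5.85 with sgNTC18 in 786-M1A, stood apart, and the other groups formed an overlapping series from 75.9 ± 7.54 with shPAX8-2 in 786-M1A down to 51.9 ± 5.01 with shPAX8-1 in OS-LM1. The log2 fold change of SMARCA4 over sgNTC18 was -1.10 with shPAX8-1 and -0.86 with shPAX8-2 in 786-M1A (adjusted p = 5.3e-06 and 7.9e-05), and -0.47 and -0.31 in OS-LM1 (adjusted p = 0.00021 and 0.0067). With GC correction the 786-M1A values were -0.54 and -0.75 and stayed called, whereas the values in OS-LM1 were -0.02 and -0.01 and were not. Between the hairpins SMARCA4 was not called in either line, at -0.23 (95% interval -0.53 to 0.07) and -0.15 (-0.35 to 0.05), and without 786-M1A shPAX8-1 replicate 2 the first of these became -0.37 and was called. The GC-corrected values were 0.22, of opposite sign, and -0.01, and neither was called.

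The list of 25 other SWI/SNF subunits was also split. Between the hairpins, 5 were higher and 6 lower with shPAX8-1 among the 22 tested in 786-M1A, and none was higher and 3 lower among the 24 tested in OS-LM1. For this list and the others below, the share of all genes called between the hairpins was 47.1% in 786-M1A and 29.1% in OS-LM1. The scaffold subunit SMARCC2 was at 39.3 ± 8.26 CPM with shPAX8-1 and 87.6 ± 5.34 CPM with shPAX8-2 in 786-M1A (log2 fold change -1.16, adjusted p = 1.9e-05, GC-corrected -0.97). In OS-LM1 ARID1B, the counterpart of ARID1A in BAF, was lower with shPAX8-1 (-0.40, adjusted p = 0.0013, GC-corrected -0.35). BCL7C in 786-M1A (-0.67, GC-corrected -0.14) and BCL7A in OS-LM1 (-0.35, GC-corrected -0.30) were lower with shPAX8-1 as well, but BCL7C lost its call with GC correction. The median of the list was -0.15 in 786-M1A (GC-corrected -0.14) and -0.08 in OS-LM1 (GC-corrected -0.07), beside -0.02 and -0.03 for all genes.

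BAP1 showed the largest fall of the 9 genes in OS-LM1. The gene lies on chromosome 3 from 52401008 to 52410008, near PBRM1. Its levels with sgNTC18 in 786-M1A were 71.7, 86.4, 85.4 and 74.3 CPM, those with shPAX8-1 were 56.8, 53.4, 40.3 and 37.1, and those with shPAX8-2 were 55.4, 57.4, 41.4 and 58.2. In OS-LM1 they were 44.9, 37.5, 41.8 and 39.3 with sgNTC18, 14.5, 23.0, 19.5 and 17.2 with shPAX8-1 and 22.2, 17.3, 28.0 and 22.6 with shPAX8-2. No hairpin library of either line reached the sgNTC18 range of its line. The order of the means was 786-M1A sgNTC18 (79.4 ± 7.52), then the 786-M1A hairpin groups (53.1 ± 7.88 and 46.9 ± 9.63) with OS-LM1 sgNTC18 (40.9 ± 3.21), which overlapped in turn, and last the OS-LM1 hairpin groups (22.5 ± 4.35 and 18.6 ± 3.60). BAP1 fell with both hairpins, with log2 fold changes over sgNTC18 of -0.74 and -0.56 in 786-M1A (shPAX8-1 and shPAX8-2, adjusted p = 0.00039 and 0.0042) and -1.16 and -0.85 in OS-LM1 (adjusted p = 3.2e-07 and 1.7e-05). These calls held with GC correction, at -0.24, -0.45, -0.76 and -0.58, and without any 1 library. Between the hairpins BAP1 was not called in either line, at -0.18 (95% interval -0.50 to 0.14) in 786-M1A and -0.32 (-0.61 to -0.03) in OS-LM1. The GC-corrected value in 786-M1A had the opposite sign, 0.21, and was called (adjusted p = 0.024), and in OS-LM1 the uncorrected value became -0.42 and was called without replicate 2 of either hairpin. The GC-corrected value in OS-LM1 was -0.19 and was not called. The difference of these differences was -0.11 (adjusted p = 0.76), and its GC-corrected value, -0.37, was called (adjusted p = 0.033).

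Of 10 listed partners of BAP1, 9 were tested between the hairpins. In 786-M1A 2 were higher with shPAX8-1, and 2 were lower. The 2 with the largest changes were the histone demethylase KDM1B (1.04, adjusted p = 3.6e-05, GC-corrected 0.80) and the forkhead factor FOXK2 (0.43, adjusted p = 0.0077, GC-corrected 0.72). In OS-LM1 1 was higher and 4 were lower, led by FOXK1 (-0.76, adjusted p = 0.00024, GC-corrected -0.65) and ASXL2 (-0.49, adjusted p = 0.00016, GC-corrected -0.55), a subunit that activates the deubiquitinase. The median of the list was -0.14 in 786-M1A (GC-corrected 0.22) and -0.22 in OS-LM1 (GC-corrected -0.22).

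SETD2 rose where BAP1 fell. It lies on the same arm, on chromosome 3 from 47016436 to 47164840, and was at 54.9, 46.9, 50.3 and 51.7 CPM with sgNTC18 in 786-M1A, at 91.4, 79.6, 96.0 and 90.6 with shPAX8-1 and at 89.0, 87.0, 82.4 and 66.2 with shPAX8-2. In OS-LM1 it was at 49.9, 56.0, 55.3 and 53.6 with sgNTC18, at 67.5, 67.9, 72.4 and 63.2 with shPAX8-1 and at 81.0, 82.4, 76.5 and 73.7 with shPAX8-2. The sgNTC18 groups of the lines overlapped with each other and with no hairpin group, and in OS-LM1 every shPAX8-2 library was above every shPAX8-1 library. The means ran from 89.4 ± 6.94 and 81.2 ± 10.3 in the 786-M1A shPAX8-1 and shPAX8-2 groups through 78.4 ± 3.99 and 67.7 ± 3.76 in the OS-LM1 shPAX8-2 and shPAX8-1 groups to 53.7 ± 2.73 and 50.9 ± 3.32 with sgNTC18 in OS-LM1 and 786-M1A. SETD2 rose over sgNTC18 by 0.83 with shPAX8-1 and 0.69 with shPAX8-2 in 786-M1A (adjusted p = 7.0e-06 and 6.3e-05) and by 0.31 and 0.55 in OS-LM1 (adjusted p = 0.0028 and 9.7e-06). The GC-corrected values were 0.55, 0.62, 0.10 and 0.40, and the one of shPAX8-1 in OS-LM1 was not called. Between the hairpins SETD2 was lower with shPAX8-1 in OS-LM1, at -0.24 (adjusted p = 0.037, GC-corrected -0.30, exact permutation p = 0.0286), but the edgeR call held in only 1 of 8 cases with a library left out, that of shPAX8-1 replicate 3. In 786-M1A the value was 0.14 (95% interval -0.09 to 0.37, GC-corrected -0.07). The difference of these differences was -0.35 and was called by edgeR (adjusted p = 0.046), and was not called with GC correction (-0.20, adjusted p = 0.19). It held in 6 of 16 cases with a library left out, those of 786-M1A shPAX8-1 replicate 2, 786-M1A shPAX8-2 replicates 1 and 2, OS-LM1 shPAX8-1 replicate 3 and OS-LM1 shPAX8-2 replicates 3 and 4, with values from -0.40 to -0.26.

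Among 19 other enzymes and readers of H3K36 methylation, shPAX8-1 against shPAX8-2 gave 1 higher and 3 lower in 786-M1A and none higher and 6 lower in OS-LM1, with medians of -0.05 and -0.11. The GC-corrected medians were 0.05 and -0.13. ZMYND11, a reader of the SETD2 mark, was the most changed in both lines. It was at 22.9 ± 1.53 CPM with shPAX8-1 and 40.01 ± 3.33 with shPAX8-2 in 786-M1A, and at 51.5 ± 5.22 and 92.9 ± 6.02 in OS-LM1 (log2 fold change -0.80 and -0.88, adjusted p = 0.00012 and 7.3e-07). The GC-corrected values were -1.14 and -0.94. PHF19, a reader of the same mark that belongs to a Polycomb complex, was at -0.68 and -0.64 (GC-corrected -0.36 and -0.54) and was called in both.

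TSC1 and MTOR were the genes of the 9 that edgeR called lower under shPAX8-1 in the hairpin comparison of each line, with and without GC correction. TSC1 lies on chromosome 9 from 132891349 to 132945378. In 786-M1A it was at 40.9, 48.1, 40.6 and 42.6 CPM with sgNTC18, at 49.2, 43.8, 38.7 and 36.8 with shPAX8-1 and at 67.1, 74.2, 57.4 and 68.8 with shPAX8-2. In OS-LM1 it was at 17.4, 22.4, 16.5 and 19.3 with sgNTC18, at 26.0, 29.4, 25.1 and 27.8 with shPAX8-1 and at 35.0, 28.8, 35.2 and 32.9 with shPAX8-2. The shPAX8-1 libraries of 786-M1A overlapped with the sgNTC18 libraries and lay under all shPAX8-2 libraries, and in OS-LM1 they lay above all sgNTC18 libraries and overlapped slightly with shPAX8-2. In order of their means the groups were 786-M1A shPAX8-2 (66.8 ± 7.02), 786-M1A sgNTC18 (43.1 ± 3.47), 786-M1A shPAX8-1 (42.1 ± 5.57), OS-LM1 shPAX8-2 (32.98 ± 2.96), OS-LM1 shPAX8-1 (27.1 ± 1.91) and OS-LM1 sgNTC18 (18.9 ± 2.60), and among neighbours only 786-M1A sgNTC18 with shPAX8-1 and the OS-LM1 hairpin groups overlapped. Between the hairpins TSC1 was lower with shPAX8-1 in both lines, with a log2 fold change of -0.67 in 786-M1A (SE 0.12, adjusted p = 0.00052, exact permutation p = 0.0286) and -0.32 in OS-LM1 (SE 0.11, adjusted p = 0.041, exact permutation p = 0.0571). With GC correction the values were -0.67 and -0.35 and both were called, but the OS-LM1 call was lost with no filter on low counts (-0.28, adjusted p = 0.077) and in one fit over all 24 libraries (-0.29, adjusted p = 0.067). The 786-M1A call held in all 8 cases with a library left out, whereas the OS-LM1 call held in only 2 of 8, those of shPAX8-1 replicate 2 and shPAX8-2 replicate 2, with values from -0.37 to -0.26. Against sgNTC18, TSC1 rose with shPAX8-2 by 0.66 in 786-M1A and 0.81 in OS-LM1 (adjusted p = 0.00018 and 3.3e-06) and with shPAX8-1 by 0.49 in OS-LM1 (adjusted p = 0.0007). The shPAX8-1 value in 786-M1A was -0.01 (95% interval -0.26 to 0.24). The GC-corrected values were 0.63, 0.83, 0.48 and -0.04. The difference between the lines in the hairpin effect was 0.38 (adjusted p = 0.076), and 0.36 with GC correction, which was called (adjusted p = 0.048).

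The letters of the shPAX8-1 seed have matches in TSC1 and MTOR and in none of the other 7 genes. The transcript-strand letters GACTCAC were searched in the annotated 3′ UTRs of the coding transcripts of GRCh38, but for TCEB1 in its longest 3′ UTR only. Each match is given with the 14 bases before it and 1 after it, 5′ to 3′ on the transcript, with the match in capitals.
TSC1 match a: gttctgcgtaatgaGACTCACc
TSC1 match b: accacagaggctcaGACTCACt
TSC1 match c: tgcccaggcacagtGACTCACt
MTOR match: cccagtgatgctgcGACTCACa
The TSC1 matches lie on the minus strand at chr9:132892655-132892676, chr9:132892812-132892833 and chr9:132910521-132910542, and are in the 3′ UTR of 14, 14 and 1 of 24 coding transcripts. Along the whole guide 8, 12 and 11 of 22 bases could pair. The MTOR match lies on the minus strand at chr1:11106892-11106913, is in 2 of 3 coding transcripts and could pair at 13 of 22 bases. The longest 3′ UTR of TSC1, 6240 bases, holds 2 matches and that of MTOR, 953 bases, holds 1. No member's longest 3′ UTR holds the shPAX8-2 letters CAACTCT, whereas that of PAX8 holds 1 match, the target itself.

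Genes with such matches were not rare. Of the genes tested in 786-M1A with an annotated 3′ UTR, 7.49% held 1 match to the shPAX8-1 seed and 0.728% held more, and their median log2 fold changes between the hairpins were -0.15 and -0.30, beside 0.02 for the 11723 genes with none. With GC correction they were -0.19, -0.36 and 0.01. In OS-LM1 the medians were -0.15 and -0.17 beside -0.04. Their 3′ UTRs were also longer, with medians of 3092 and 5495 bases against 1418 in 786-M1A. The part of seed matches in the TSC1 and MTOR values was not tested.

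**Figure D3:**
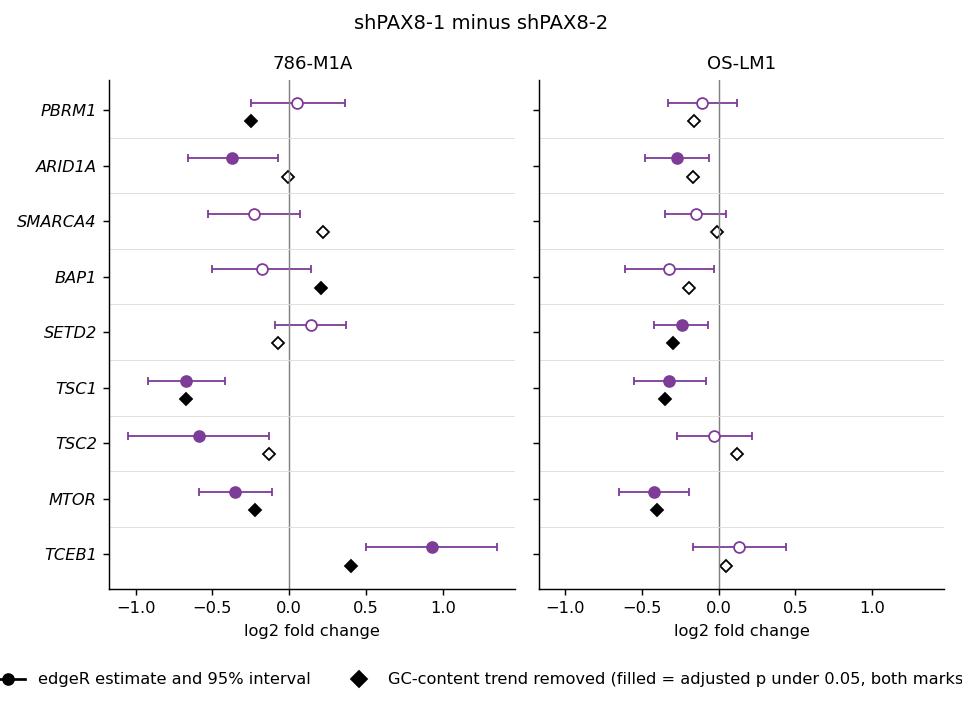
Log2 fold change of each gene between the hairpins, shPAX8-1 minus shPAX8-2, in each line. Circles give the edgeR estimate with its 95% interval and diamonds the GC-corrected value, and a filled mark has an adjusted p under 0.05. TSC1 and MTOR are left of 0 by both estimates in both lines, and TCEB1 is at 0.93 and 0.40 in 786-M1A.

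TSC2, the GTPase-activating partner of TSC1, followed it only in part. On chromosome 16 from 2047985 to 2089491 and the most GC-rich of the 9, it was at 46.2, 62.6, 52.8 and 47.8 CPM with sgNTC18 in 786-M1A, at 52.8, 40.2, 26.5 and 24.97 with shPAX8-1 and at 58.9, 66.9, 41.0 and 49.9 with shPAX8-2. In OS-LM1 it was at 32.6, 37.3, 32.3 and 31.6 with sgNTC18, at 24.5, 28.5, 23.2 and 25.8 with shPAX8-1 and at 25.7, 19.5, 29.3 and 27.1 with shPAX8-2. The OS-LM1 hairpin libraries all lay below the sgNTC18 libraries, and the 786-M1A groups overlapped. The means of 786-M1A shPAX8-2 (54.2 ± 11.2), sgNTC18 (52.3 ± 7.42) and shPAX8-1 (36.1 ± 13.03) and OS-LM1 sgNTC18 (33.5 ± 2.59) belonged to groups that overlapped in turn, and the OS-LM1 hairpin groups (25.5 ± 2.27 and 25.4 ± 4.21) were below them. The log2 fold change of TSC2 over sgNTC18 was -0.42 and -0.39 in OS-LM1 (shPAX8-1 and shPAX8-2, adjusted p = 0.0031 and 0.0056) and -0.51 with shPAX8-1 in 786-M1A (adjusted p = 0.045). With shPAX8-2 in 786-M1A it was 0.07 (95% interval -0.38 to 0.53, GC-corrected 0.18). None of these calls held with GC correction, at 0.04, -0.08 and 0.05. Between the hairpins TSC2 was lower with shPAX8-1 in 786-M1A, at -0.59 (adjusted p = 0.037, GC-corrected -0.13 and not called). In OS-LM1 the value was -0.03 (95% interval -0.27 to 0.22, GC-corrected 0.12). The call between the hairpins held in 3 of 8 cases with a library left out, those of shPAX8-1 replicates 1 and 2 and shPAX8-2 replicate 3, with values from -0.83 to -0.44. The 786-M1A call against sgNTC18 held in 3 of 8, those of sgNTC18 replicate 1 and shPAX8-1 replicates 1 and 2, with values from -0.75 to -0.37. With replicates 1 and 2 alone in the shPAX8-1 group the values were -0.22 and -0.18, and neither was called.

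MTOR itself was lower than with sgNTC18 with both hairpins in both lines, and each of these 4 calls held under every alternative tried. The gene lies on chromosome 1 from 11106535 to 11262551 and overlaps the antisense RNA MTOR-AS1, whose reads may be included since the use of strand in counting is not given. Its levels with sgNTC18 in 786-M1A were 102, 94.5, 105 and 90.2 CPM, those with shPAX8-1 were 47.0, 49.4, 36.5 and 38.1, and those with shPAX8-2 were 53.6, 55.6, 56.4 and 52.5. In OS-LM1 they were 77.1, 79.9, 73.3 and 70.7 with sgNTC18, 42.3, 49.6, 37.9 and 42.5 with shPAX8-1 and 63.5, 45.7, 63.0 and 52.9 with shPAX8-2. The 3 groups of 786-M1A did not overlap, and in OS-LM1 only the hairpin groups did. The group means were 97.9 ± 6.79 and 75.3 ± 4.08 with sgNTC18 in 786-M1A and OS-LM1, 54.5 ± 1.82 and 56.2 ± 8.57 with shPAX8-2, and 42.7 ± 6.41 and 43.1 ± 4.86 with shPAX8-1, and the lines overlapped within each hairpin but not within sgNTC18. The log2 fold change over sgNTC18 was -1.17 with shPAX8-1 and -0.82 with shPAX8-2 in 786-M1A (adjusted p = 2.2e-07 and 1.3e-05), and -0.83 and -0.42 in OS-LM1 (adjusted p = 1.3e-06 and 0.0021). The GC-corrected values were -1.0, -0.79, -0.69 and -0.29, and all were called. Between the hairpins MTOR was lower with shPAX8-1, at -0.35 in 786-M1A (SE 0.11, adjusted p = 0.019, exact permutation p = 0.0286) and -0.42 in OS-LM1 (SE 0.11, adjusted p = 0.0075, exact permutation p = 0.0571). Its GC-corrected values of -0.22 and -0.40 were called as well. The 786-M1A call was lost without shPAX8-1 replicate 3 (-0.28) or replicate 4 (-0.30) and with replicates 1 and 2 of that group alone (-0.17), and the OS-LM1 call held in all 8 cases. The difference between the lines was -0.04 (95% interval -0.36 to 0.29, GC-corrected -0.14).

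The exact permutation test of 4 against 4 libraries, two-sided, was run for each gene and line between the hairpins, 18 tests in all. The smallest p it allows is 0.0286, which TSC1, MTOR and TCEB1 reached in 786-M1A and SETD2 in OS-LM1. For all the other genes the hairpin groups overlapped, with exact p from 0.0571 for TSC1 and MTOR in OS-LM1 to 0.914 for TSC2 in OS-LM1.

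**Figure D4:**
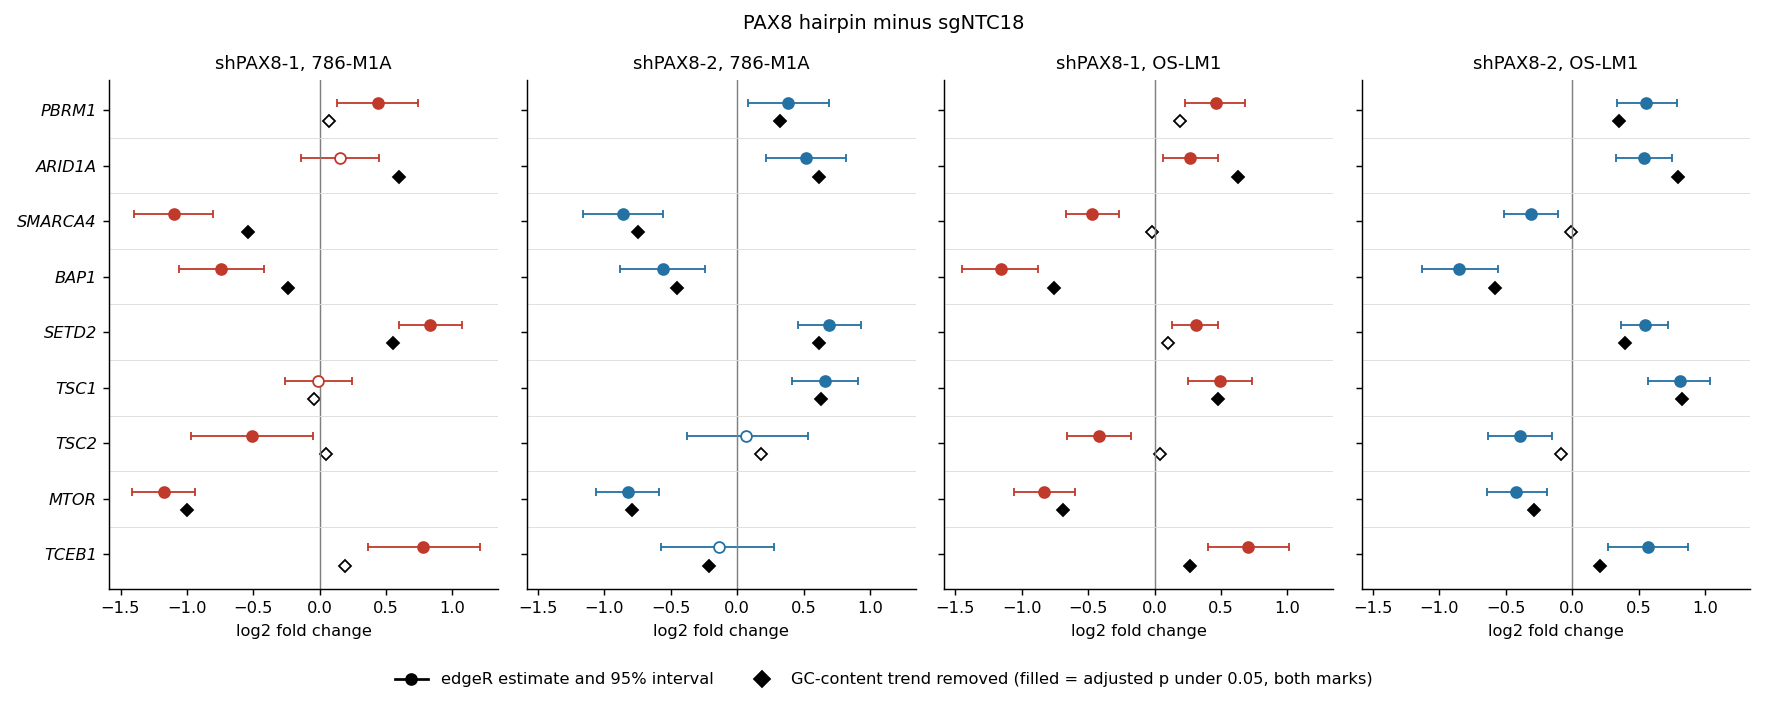
Log2 fold change of each gene over sgNTC18 with each hairpin in each line, drawn as circles with 95% intervals (edgeR) and diamonds (GC-corrected), filled where the adjusted p is under 0.05. The comparisons of a line share their 4 sgNTC18 libraries. BAP1 and MTOR are filled and left of 0 by both estimates in all 4 panels.

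Genes of the pathway around MTOR moved in both directions. Of the 13 listed mTOR complex genes with RHEB, the comparison of the hairpins in 786-M1A found 5 higher and 2 lower with shPAX8-1, and 1 was higher and 4 were lower among the 12 tested in OS-LM1, beside 47.1% and 29.1% of all genes called. The medians were 0.16 and -0.18 (GC-corrected 0.08 and -0.15). RPTOR, the subunit that brings substrates to mTORC1, was at 54.0 ± 11.1 CPM with shPAX8-1 and 134 ± 13.3 with shPAX8-2 in 786-M1A (-1.31, adjusted p = 1.2e-05, GC-corrected -0.89). RHEB was at 315 ± 82.4 CPM and 155 ± 14.9 CPM (1.03, adjusted p = 0.00013, GC-corrected 1.01). In OS-LM1 the chaperone gene TTI1 (-0.61, GC-corrected -0.64) and the mTORC2 subunit RICTOR (-0.44, GC-corrected -0.52) were lower with shPAX8-1.

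Upstream, the list of PI3K, AKT and AMPK inputs held 6 higher and 5 lower genes of 14 tested in 786-M1A, and 2 higher and 2 lower of 16 in OS-LM1, with medians of 0.23 and 0.02. With GC correction these medians were 0.03 and 0.0, and 3 genes were higher and 5 lower in 786-M1A. PIK3CB, a catalytic subunit of PI3K, was higher with shPAX8-1 in 786-M1A (0.85, GC-corrected 0.49). In OS-LM1 PIK3R2 was lower (-0.50, GC-corrected -0.36) and DDIT4, an inhibitor of mTORC1 signalling induced by stress, was higher (0.44, GC-corrected 0.58). Of the genes of lysosomal amino acid sensing, 8 were higher and 5 lower of 20 tested in 786-M1A, and none was higher and 3 were lower of 21 in OS-LM1, with medians of -0.07 and -0.09 (GC-corrected 0.13 and -0.08). The Ragulator subunit LAMTOR1 was lower with shPAX8-1 in both lines (-1.40 and -0.63, GC-corrected -1.13 and -0.55), whereas its partner LAMTOR3 was higher in 786-M1A (1.08, GC-corrected 0.54). DEPDC5, a subunit of the GATOR1 brake, was lower in OS-LM1 (-0.41, GC-corrected -0.37).

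Downstream, 3 of 9 mTORC1 effectors were higher and 4 lower with shPAX8-1 in 786-M1A, and 1 was higher and 2 were lower in OS-LM1, with medians of -0.12 and -0.26 (GC-corrected -0.12 and -0.13). The S6 kinase gene RPS6KB2 was lower in both lines (-1.09 and -0.65, GC-corrected -0.73 and -0.53). The cap-binding factor EIF4E was higher in 786-M1A (1.01, GC-corrected 0.42), and the autophagy kinase ULK1 was lower in OS-LM1 (-0.85, GC-corrected -0.69).

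TCEB1 had the largest difference of the 9 between the hairpins in 786-M1A, though TSC1 had it after GC correction and with replicates 1 and 2 alone in the shPAX8-1 group. Located on chromosome 8 from 73945119 to 73972287, it was at 122, 101, 105 and 122 CPM with sgNTC18 in 786-M1A, at 123, 148, 237 and 255 with shPAX8-1 and at 85.9, 86.4, 112 and 118 with shPAX8-2. In OS-LM1 it was at 64.3, 59.3, 70.7 and 70.1 with sgNTC18, at 111, 85.4, 143 and 99.1 with shPAX8-1 and at 87.5, 119.7, 78.1 and 106 with shPAX8-2. No OS-LM1 hairpin library overlapped with the sgNTC18 libraries of that line. The mean was highest with shPAX8-1 in 786-M1A (191 ± 65.0), lowest with sgNTC18 in OS-LM1 (66.1 ± 5.36), and between 97.9 and 113 in the overlapping groups between them. Between the hairpins TCEB1 was higher with shPAX8-1 in 786-M1A by 0.93 (SE 0.20, adjusted p = 0.002, exact permutation p = 0.0286), which GC correction lowered to 0.40, still called (adjusted p = 0.0017). With replicates 1 and 2 alone in the shPAX8-1 group it was 0.44 (adjusted p = 0.032), beside -0.52 for TSC1, and with replicates 3 and 4 alone it was 1.29. In OS-LM1 the value was 0.13 (95% interval -0.17 to 0.44, GC-corrected 0.05). The difference of these differences was -0.76 and was called by edgeR (adjusted p = 0.032), with a GC-corrected value of -0.32 that was not (adjusted p = 0.081). It held in 8 of 16 cases with a library left out, those of replicates 1 and 2 of shPAX8-1 and 3 and 4 of shPAX8-2 in 786-M1A and of replicates 1 and 3 of either hairpin in OS-LM1, with values from -0.92 to -0.59. Against sgNTC18 TCEB1 rose with shPAX8-1 by 0.78 in 786-M1A (adjusted p = 0.0025) and 0.70 in OS-LM1 (adjusted p = 0.00027) and with shPAX8-2 by 0.57 in OS-LM1 (adjusted p = 0.0019). The shPAX8-2 value in 786-M1A was -0.14 (adjusted p = 0.55). Correction for GC took these to 0.19, 0.27, 0.21 and -0.21, of which the first was no longer called and the last was. The first was also not called (0.26) with replicates 1 and 2 alone in that group. The genome holds many processed pseudogene copies of TCEB1, among which reads may have been divided, so its count is less certain than those of the others.

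Of the 7 listed partners of elongin C, 3 were higher and none was lower with shPAX8-1 in 786-M1A, and 3 were higher and 1 lower in OS-LM1, with medians of 0.25 and 0.18 (GC-corrected 0.04 and 0.13). The cullins CUL5 and CUL2, both at 0.51 in 786-M1A, were not called after GC correction (0.00 and 0.14). In OS-LM1 TCEB2, which encodes elongin B, was at 158 ± 20.3 CPM with shPAX8-1 and 119 ± 13.9 CPM with shPAX8-2 (0.38, adjusted p = 0.0062, GC-corrected 0.44), and the RING protein gene RNF7 was higher by 0.36 (GC-corrected 0.30).

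BAP1, TSC1 and PBRM1 differed between the lines whichever construct they carried. BAP1 was lower in OS-LM1 than in 786-M1A, at -1.34, -1.23 and -0.96 on the log2 scale with shPAX8-1, shPAX8-2 and sgNTC18 (adjusted p = 1.7e-08, 6.5e-08 and 3.8e-06). TSC1 was lower as well, at -0.64, -1.02 and -1.19 (adjusted p = 1.4e-05, 6.8e-09 and 7.8e-10). PBRM1 was higher in OS-LM1 with each construct, by 0.56, 0.69 and 0.50 (adjusted p = 0.00022, 1.8e-05 and 0.0011). GC correction kept all 9 of these calls, with values of -1.13, -0.76 and -0.68 for BAP1, -0.71, -1.07 and -1.28 for TSC1 and 0.45, 0.34 and 0.32 for PBRM1. BAP1 and PBRM1, neighbours on chromosome 3, thus differed between the lines in opposite directions.

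No other member was called with every construct both with and without GC correction, though SMARCA4 and TSC2 were called with every construct without it. SMARCA4 was lower in OS-LM1 with sgNTC18 (-0.99, adjusted p = 7.3e-08, GC-corrected -0.62), and its hairpin values of -0.32 and -0.43 were called but lost with GC correction (-0.03 and 0.17). TSC2 was lower with shPAX8-1, shPAX8-2 and sgNTC18, at -0.51, -1.09 and -0.64, and the GC-corrected values were -0.15, -0.42 and -0.21, of which the last 2 were called. The shPAX8-1 value of TSC2 was -0.26 and not called without 786-M1A shPAX8-1 replicate 1, and that of SMARCA4 was not called without any 1 of 4 libraries (replicates 1 and 2 of 786-M1A, replicates 1 and 4 of OS-LM1, all shPAX8-1). TCEB1 was lower with shPAX8-1 and sgNTC18 (-0.80 and -0.77) and at -0.04 with shPAX8-2, and after GC correction it was lower with all of them (-0.92, -1.01 and -0.59). MTOR was lower with sgNTC18 (-0.38, adjusted p = 0.0038, GC-corrected -0.36), whereas its hairpin values were 0.01 and 0.05 with 95% intervals of -0.22 to 0.24 and -0.18 to 0.27 (GC-corrected 0.02 and 0.16). SETD2 was lower with shPAX8-1 (-0.40, adjusted p = 0.00032, GC-corrected -0.52) and did not pass the test with shPAX8-2 (-0.05) or sgNTC18 (0.08), although the GC-corrected shPAX8-2 value, -0.32, was called (adjusted p = 0.00063) and that with sgNTC18 was -0.10. The value of ARID1A with shPAX8-1 was -0.21 (adjusted p = 0.13, GC-corrected -0.04). ARID1A was lower with shPAX8-2 (-0.33) and sgNTC18 (-0.37), neither held with GC correction (0.07 and -0.15), and the first was lost without replicate 1 or 2 of 786-M1A shPAX8-2 or replicate 2 or 4 of OS-LM1 shPAX8-2 (-0.25 to -0.30).

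**Figure D5:**
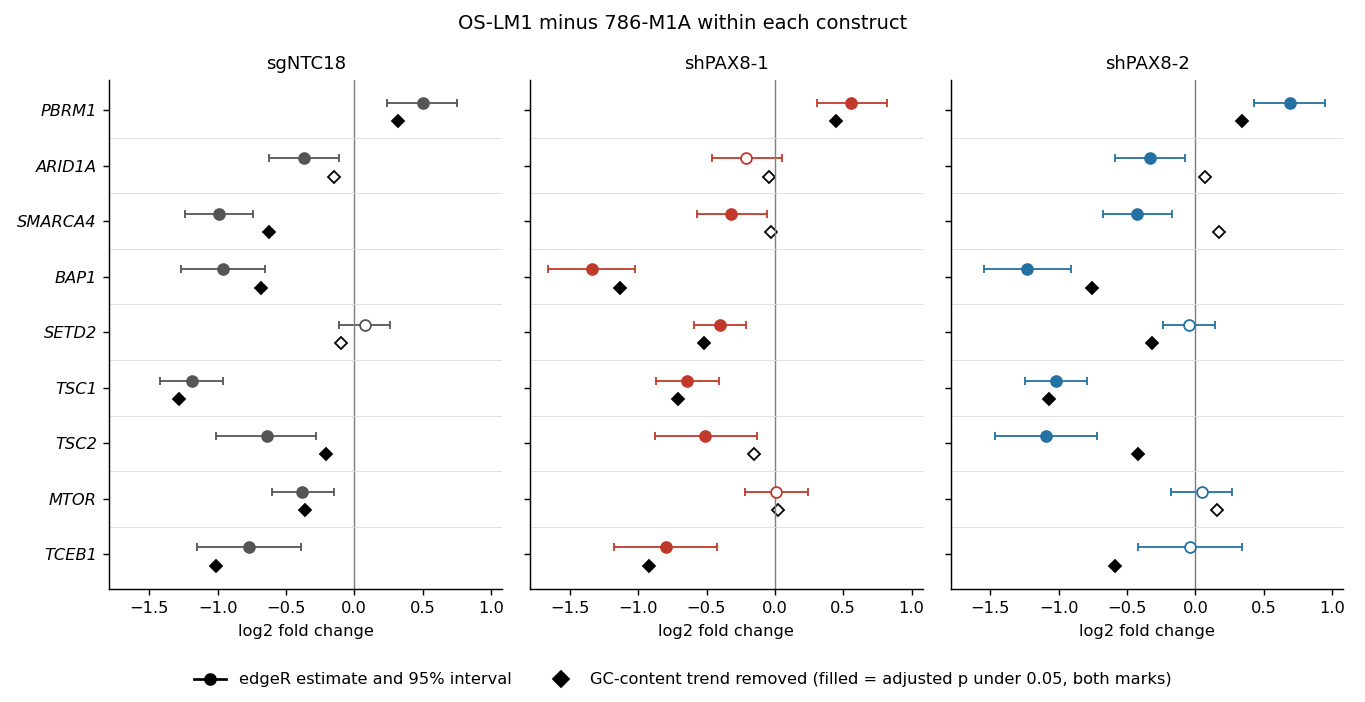
Log2 fold change of each gene between the lines, OS-LM1 minus 786-M1A, within each construct, as circles with 95% intervals (edgeR) and diamonds (GC-corrected), filled where the adjusted p is under 0.05. BAP1 and TSC1 are left of 0 and PBRM1 is right of 0 in every panel by both estimates.

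The genes that lie between SETD2 and PBRM1 give the setting on chromosome 3. From 47016436 to 52685913 the annotation places 159 genes other than PBRM1, BAP1 and SETD2, with 116 tested between the lines, and their median GC content of 57.3% was above that of all tested genes. Their median log2 fold change was -0.28 with shPAX8-1, -0.58 with shPAX8-2 and -0.31 with sgNTC18, beside medians of all genes within 0.01 of 0, and with GC correction it was -0.16, -0.25 and -0.15. With sgNTC18 11 of the 116 were higher and 55 lower in OS-LM1, beside 32.0% and 31.0% of all genes. With GC correction 17 were higher and 45 lower. BAP1, at -0.96, was thus further below 0 than the median of its neighbours, and PBRM1, at 0.50, was on the other side. Against sgNTC18 the same stretch had medians of -0.51, -0.12, -0.48 and -0.37 (shPAX8-1 and shPAX8-2 in 786-M1A, then in OS-LM1), which GC correction took to -0.22, -0.10, -0.21 and -0.24. BAP1 was below each of them by either estimate, though with shPAX8-1 in 786-M1A its GC-corrected value of -0.24 was nearly level with its neighbours, whereas PBRM1 and SETD2 were above 0 in all 4.

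Over the 24 libraries the levels of some members ran together. The Pearson correlation of log2 CPM, given as a description since libraries share lines, constructs and the GC axis, was 0.87 between BAP1 and SMARCA4 and 0.87 between BAP1 and TSC2, which are the 3 most GC-rich of the 9. ARID1A and TSC1 correlated at 0.83 and SMARCA4 and MTOR at 0.83. PBRM1 ran against BAP1 at -0.92, and SETD2 against MTOR at -0.78. TSC1 and TSC2, whose proteins form 1 complex, correlated at 0.66.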

How the data were processed

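The 24 libraries were poly(A) RNA-seq of 2 cell lines with 3 constructs, 4 replicates each. Per the labels and the study's methods the authors aligned reads to the human genome (hg38) with Bowtie2 and deposited an expected count and a TPM value per gene from RSEM; versions and the use of strand in counting are not given in the sources used here. Grouping followed the sample titles.

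Expected counts were rounded and tested with edgeR 4.0.16 (R 4.3.3, quasi-likelihood, robust, TMM scaling, filterByExpr, Benjamini-Hochberg adjustment over all genes tested at 0.05). The 12 libraries of a line shared a fit for comparisons within it, and all 24 shared a fit for comparisons of lines and for the interaction. CPM used TMM library sizes, and log2 CPM a prior count of 2. TPM values were described and not tested. Exact permutation tests were two-sided. Gene positions came from RefSeq (GRCh38). GC content came from GENCODE v44 transcripts for 25441 of 26475 genes, and GC correction removed a spline of 5 degrees of freedom from each library by offsets. Hairpin sequences came from the study's supplementary tables and were matched to GENCODE v44 transcripts. Depth ran from 11634419 to 52059375 counts with a median of 20511914.5, and counting error (1.74% to 4.98% CV) exceeded the replicate CV in 1 of 54 gene and group pairs, MTOR in 786-M1A shPAX8-2. No replicates of a group agreed within sampling noise (lowest chi-square per gene 3.731). The fit was also run on simulated counts with known changes. These had the same spread for every gene and no gap between replicates, so they do not bear on the 786-M1A shPAX8-1 group.

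Alternatives were DESeq2 1.42.0, its size factors in edgeR, no filter, GC correction, a replicate block, one fit over all libraries, either replicate pair of 786-M1A shPAX8-1 alone, and leaving out each library. The 9 genes and the pathway lists were chosen with earlier results of these data known. Beyond PAX8 and the 9, the text names from each list up to 2 genes per line with the largest absolute log2 fold change between the hairpins among those called of average log2 CPM 3 or more, and per member the 3 genes with the highest correlation over the libraries. A few genes that these rules select are not reported here.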

Additional observations from a re-analysis of the deposited data

Results flagged for a closer look

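In 54 groups of 4 libraries (9 genes by 6 groups) the highest or lowest library was compared with the rest by Dixon's ratio of gap to range, for which chance gives about 1 in 20, or 2.7 groups, and 2 exceeded its 95% critical value. ARID1A in OS-LM1 shPAX8-2 replicate 3 stood at 153.64 CPM, with the other replicates at 118.39 to 121.97 (ratio 0.898). TSC2 in OS-LM1 sgNTC18 replicate 2 stood at 37.29 CPM, with the others at 31.635 to 32.568 (ratio 0.835).

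The effect of shPAX8-1 over shPAX8-2 differed between the lines for SETD2 and TCEB1 by edgeR's interaction term. As OS-LM1 minus 786-M1A, this came to -0.35 for SETD2 (adjusted p = 0.046) and -0.76 for TCEB1 (adjusted p = 0.032). Both include the 786-M1A shPAX8-1 group whose replicates stood apart by GC content, and neither was called with GC correction.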

How the results depend on the processing

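Over all alternatives 1178 of 1368 gene values kept both direction and call, and the cause of the changes was not tested. Counting error was over 0.5 of the replicate CV in 4 of 54 gene and group pairs, MTOR in 786-M1A shPAX8-2 and SMARCA4 and PBRM1 with sgNTC18 and TSC1 with shPAX8-1 in OS-LM1. With replicates 1 and 2 of that group alone, the hairpins differed in 786-M1A at 3869 genes and 2 of the 9 (6803 and 5 with all replicates, 9048 with replicates 3 and 4), and the interaction at 2579 genes and 0 of the 9, against 6817 and 5 with replicates 3 and 4. Of the 9 between the hairpins in OS-LM1, 2 were called with DESeq2's size factors, 1 with no filter, 1 in the fit over all libraries and 1 with the replicate block. The interaction called 1 with no filter and 1 with the block, and GC correction left 5 of the 9 for shPAX8-1 over sgNTC18 in OS-LM1.

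Values that changed sign were uncalled in the report except 4 under GC correction: TSC2 with shPAX8-1 over sgNTC18 in 786-M1A (0.05) and OS-LM1 (0.04), and between the lines with shPAX8-2 ARID1A (0.07) and SMARCA4 (0.17). The others under GC correction were PBRM1 (-0.25), SMARCA4 (0.22), BAP1 (0.21) and SETD2 (-0.07) between the hairpins in 786-M1A, TSC2 in OS-LM1 (0.12), SETD2 between the lines with sgNTC18 (-0.10), and the interactions of PBRM1 (0.11), ARID1A (-0.12) and SMARCA4 (-0.20). With replicates 1 and 2 alone they were PBRM1 (-0.17), SMARCA4 (0.01) and BAP1 (0.05) between the hairpins, TSC1 over sgNTC18 (0.11), MTOR between the lines (-0.19), and the interactions of PBRM1 (0.09), ARID1A (-0.07) and SMARCA4 (-0.14). With replicates 3 and 4 they were ARID1A over sgNTC18 (-0.07) and between the lines (0.01), and the interactions of BAP1 (0.18) and MTOR (0.18). MTOR between the lines with shPAX8-1 was -0.01 with DESeq2 and with its size factors.

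Replicate numbers did not pair the libraries across all comparisons: same-number residuals correlated at -0.319 to 0.271, over 0.1 in 6 of 24 pairs. Between the hairpins in 786-M1A the same-number values were all positive, at 0.217, 0.154, 0.271 and 0.037. Unlike numbers there ran from -0.365 (shPAX8-1 replicate 1 with shPAX8-2 replicate 3) to 0.312 (4 with 3). The main fit took no account of this. With the block 5 of the 9 were still called there, ARID1A and TSC2 at edgeR adjusted p = 0.013 and 0.011. With the replicate block MTOR between the lines was -0.11 with shPAX8-1 and -0.08 with shPAX8-2, TCEB1 0.21 with shPAX8-2 and SETD2 -0.08 with sgNTC18. Calls of TCEB1 between the lines with shPAX8-1 (-0.53, edgeR adjusted p = 0.064) and sgNTC18 (-0.55, adjusted p = 0.056), of ARID1A, SETD2 and TSC1 between the hairpins in OS-LM1 (adjusted p = 0.1, 0.069 and 0.066) and of the SETD2 interaction (adjusted p = 0.058) were not made with the block, and ARID1A between the lines with shPAX8-1 was called (-0.36, adjusted p = 0.046).

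With each library left out in turn, the number called of the 9 ranged from 2 to 6 between the hairpins in 786-M1A and 1 to 4 in OS-LM1, 6 to 7 with either hairpin over sgNTC18 in 786-M1A, 8 to 9 with shPAX8-1 over sgNTC18 in OS-LM1, 5 to 8 and 5 to 6 between the lines with shPAX8-1 and shPAX8-2, and 0 to 3 for the interaction. Sign changes were PBRM1 between the hairpins in 786-M1A (-0.02 to 0.14), TSC2 in OS-LM1 (-0.13 to 0.07), TSC1 with shPAX8-1 (-0.10 to 0.05) and TSC2 with shPAX8-2 (-0.04 to 0.19) over sgNTC18 in 786-M1A, MTOR between the lines with shPAX8-1 (-0.08 to 0.09) and shPAX8-2 (-0.01 to 0.13), TCEB1 with shPAX8-2 (-0.15 to 0.06), and the interactions of BAP1 (-0.22 to 0.02) and MTOR (-0.12 to 0.04). None of these was called before or after.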

Other observations

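For each gene up to 3 genes with the most similar log2 CPM over the 24 libraries were taken from 9362 genes of sufficient level, as a description with no test, since the libraries share lines, constructs and the GC trend. The closest to PBRM1 were IREB2 (Pearson r 0.962), PRKD3 (0.959) and SLU7 (0.959). Those of ARID1A were CUX1 (0.934), POLR2J2 (0.928) and ZBTB4 (0.925), and those of SMARCA4 were SPTAN1 (0.983), RABL6 (0.975) and PUF60 (0.969). BAP1 ran closest to EEF1D (0.987), ILVBL (0.987) and ADAM15 (0.986), and SETD2 to MGEA5 (0.962) and RNF168 (0.96). For TSC1 they were CDK18 (0.972), IER5L (0.967) and AGPAT4 (0.958), and for TSC2 TJAP1 (0.967), SPPL2B (0.966) and MAPK8IP3 (0.961). MTOR had ABCB8 (0.971), APEH (0.968) and NOL6 (0.966), and TCEB1 had ENY2 (0.963), MFF (0.953) and EMC2 (0.947).

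The 8 other genes listed as mutated in ccRCC were not uniform between the hairpins. In 786-M1A 1 was higher and 3 were lower with shPAX8-1 (24.2% and 22.9% of all genes). The cohesin gene STAG2 was at 82.2 ± 24.9 CPM with shPAX8-1 and 44.1 ± 4.45 with shPAX8-2 (log2 fold change 0.90, edgeR adjusted p = 0.0012, GC-corrected 0.35). The histone demethylase KDM5C was at 58.3 ± 8.95 and 95.8 ± 10.8 CPM (-0.72, adjusted p = 0.0005, GC-corrected -0.46). In OS-LM1 4 of the 8 were lower and none was higher (16.7% and 12.4% of all genes). KDM5C was at 26.0 ± 2.73 and 38.7 ± 6.0 CPM (-0.61, adjusted p = 0.00032, GC-corrected -0.53), and KDM6A, which demethylates lysine 27 of histone H3, was at 28.8 ± 1.23 and 41.6 ± 3.21 CPM (-0.56, adjusted p = 0.00018, GC-corrected -0.65).

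Between the lines the share of all genes called lower in OS-LM1 was 37.7%, 38.2% and 31.0% with shPAX8-1, shPAX8-2 and sgNTC18, and the share higher was 38.7%, 38.7% and 32.0%. Of the BAP1 partners, with shPAX8-1 8 of 9 were lower and none higher (median -0.78, all genes within 0.01 of 0, GC-corrected median -0.72), with shPAX8-2 6 were lower and 1 higher (-0.73, GC-corrected -0.68), and with sgNTC18 3 were lower and 1 higher (-0.22, GC-corrected 0.01). Of the 7 elongin and cullin partners, 6 were higher in OS-LM1 with shPAX8-1 and 5 with shPAX8-2, and none was lower, with or without GC correction. With sgNTC18 4 were higher and 1 lower, and 2 and 1 with GC correction. The medians were 0.52, 0.64 and 0.25 (GC-corrected 0.44, 0.41 and 0.14).

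On chromosome 3 between SETD2 and PBRM1, the genes that changed most between the hairpins were AMIGO3 (-1.47, GC-corrected -0.98) and HEMK1 (-1.37, GC-corrected -1.19) in 786-M1A and TCTA (0.74, GC-corrected 0.79) and P4HTM (-0.74, GC-corrected -0.60) in OS-LM1. The median of the stretch was -0.37 in 786-M1A and -0.10 in OS-LM1. In 786-M1A 8 of 110 were higher and 41 lower (24.2% and 22.9% of all genes), and 20 and 33 with GC correction. In OS-LM1 10 of 111 were higher and 21 lower (12.4% and 16.7% of all genes), and 15 and 20 with GC correction. With GC correction the medians were -0.04 and -0.02.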
